A study of Mus musculus with 12 samples.

Results

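Small nucleolar RNAs (snoRNAs), the related small Cajal body RNAs (scaRNAs) and the non-coding genes that carry snoRNAs (Snhg genes) were followed in newly made RNA of 2 kinds of mouse macrophage. Their members were chosen by symbol in the array's probe annotation, as every gene whose symbol starts with Snora, Snord, Scarna or Snhg and that has a probe set naming it alone. This gave 59 of 19938 genes, namely 20 Snora, 31 Snord, 3 Scarna and 5 Snhg genes, which 64 probe sets represented. A gene with several probe sets was read from the brightest of them, averaged over all 12 arrays. A further 22 probe sets carry such a symbol together with another gene and were kept apart.

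The 4 groups held 3 arrays each. MPI-2 LPS and MPI-2 mock are samples of MPI-2, a self-renewing macrophage line from C57BL/6 fetal liver grown in RPMI with GM-CSF, given lipopolysaccharide (LPS, a bacterial cell wall component) or mock-treated. BMM LPS and BMM mock are macrophages differentiated from C57BL/6 bone marrow in DMEM with M-CSF, given LPS or mock-treated. Both media held fetal calf serum, and all 4 groups were exposed to 4-thiouridine, a uridine analogue taken into RNA while it is made, for 60 min before labelled RNA was purified and hybridised. In the LPS groups the analogue was added 30 min after LPS. MPI-2 stands for 1 line, and cell type, medium and growth factor cannot be told apart in any comparison of MPI-2 with BMM. No label names an array batch. The titles call the replicates biological but name no separate animals or cultures, so the spread behind each p-value is that between these samples.

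A snoRNA pairs with ribosomal RNA and guides a modifying enzyme to a base. Snord genes encode the box C/D class, which guides methylation of the ribose by fibrillarin, and Snora genes the box H/ACA class, which guides pseudouridylation by dyskerin. ScaRNAs do the same for spliceosomal RNAs in Cajal bodies. In mammals most of these RNAs lie in introns and are cut out of the spliced intron of a host gene, often a ribosomal protein or translation factor gene, or an Snhg gene whose exons code for no protein. Many such hosts begin with a run of pyrimidines, the terminal oligopyrimidine (TOP) start of genes of the translation machinery. A labelling window of 60 min catches the host precursor as well as the excised RNA, so a snoRNA probe set can read either, and these cannot be told apart here.

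The promoters of 5 host genes that the results below turn on are shown from RefSeq (GRCm38.p6), 250 bases before to 50 after the annotated start, read 5′ to 3′ on the gene's strand. Capitals mark the longest run of C and T that begins within 20 bases of the start. Rpl4 (chr9:64173137-64173436, plus strand) holds Snord16a, Rpl27a (chr7:109518945-109519244, plus strand) holds Snora3 and 2410006H16Rik (chr11:62602627-62602926, plus strand) holds both Snord49a and Snord49b. Snhg16 (chr11:116671410-116671709, plus strand) and Snhg5 (chr9:88522848-88523147, minus strand) are members themselves.
Rpl4: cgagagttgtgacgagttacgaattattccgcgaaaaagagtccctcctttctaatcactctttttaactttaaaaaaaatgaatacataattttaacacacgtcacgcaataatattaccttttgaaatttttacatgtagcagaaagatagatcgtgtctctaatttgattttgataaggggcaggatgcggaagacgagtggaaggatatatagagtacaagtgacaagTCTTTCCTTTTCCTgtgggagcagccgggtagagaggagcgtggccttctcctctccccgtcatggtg
Rpl27a: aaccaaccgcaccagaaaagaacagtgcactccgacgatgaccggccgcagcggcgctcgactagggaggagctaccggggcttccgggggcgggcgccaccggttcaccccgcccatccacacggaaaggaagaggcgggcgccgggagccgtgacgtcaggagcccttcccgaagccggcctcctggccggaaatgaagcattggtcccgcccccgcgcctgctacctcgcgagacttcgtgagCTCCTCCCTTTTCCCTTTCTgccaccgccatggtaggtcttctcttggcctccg
2410006H16Rik: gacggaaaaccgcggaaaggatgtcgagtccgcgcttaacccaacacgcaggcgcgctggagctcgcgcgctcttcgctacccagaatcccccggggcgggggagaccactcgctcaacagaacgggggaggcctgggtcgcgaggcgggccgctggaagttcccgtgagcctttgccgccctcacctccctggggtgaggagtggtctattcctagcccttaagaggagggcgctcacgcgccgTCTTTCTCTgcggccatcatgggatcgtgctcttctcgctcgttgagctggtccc
Snhg16: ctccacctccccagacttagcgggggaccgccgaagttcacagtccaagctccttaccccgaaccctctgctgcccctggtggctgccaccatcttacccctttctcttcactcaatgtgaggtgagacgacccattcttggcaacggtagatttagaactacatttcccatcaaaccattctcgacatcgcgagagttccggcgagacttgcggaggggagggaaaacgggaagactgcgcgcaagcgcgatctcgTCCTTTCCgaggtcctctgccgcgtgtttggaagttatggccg
Snhg5: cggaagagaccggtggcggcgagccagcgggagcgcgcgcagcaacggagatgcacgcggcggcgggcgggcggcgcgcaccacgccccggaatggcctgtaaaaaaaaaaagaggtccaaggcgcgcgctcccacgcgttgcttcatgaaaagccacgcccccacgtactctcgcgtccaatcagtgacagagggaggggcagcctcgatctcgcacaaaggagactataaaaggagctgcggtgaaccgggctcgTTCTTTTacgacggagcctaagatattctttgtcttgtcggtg
The runs measured 14 bases in Rpl4, 20 in Rpl27a, 9 in 2410006H16Rik, 8 in Snhg16 and 7 in Snhg5. They begin 18, 4 and 5 bases before the annotated start in Rpl4, Rpl27a and 2410006H16Rik, and 7 after it in Snhg16 and Snhg5. Only the runs of Rpl27a and 2410006H16Rik span that start, and the run of Rpl4 ends before it. A run of at least 8 was present in 13 of 34 promoters of the genes holding the small RNA members (38.2%), in 2 of 6 promoters of Snhg members and in 5656 of 32851 promoters in all (17.2%). Motifs were searched on both strands over the whole window. The E-box CACGTG was found in 6 of 34 host promoters (17.6%) against 7.15% of all promoters, and TATAAA in 8 of 34 (23.5%) against 13.6%. The AP-1 sequence TGANTCA was found in 1 of 34 (2.94%) against 7.81%, the interferon-stimulated element (GAAA, 2 bases of any kind, GAAA) in 3 of 34 (8.82%) against 3.44%, and the loose kappaB pattern (GGG, 5 bases of any kind, CC) in 15 of 34 (44.1%) against 50.8%. These are counts of letters in the window and not of sites in use.

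Values are the deposited log2 expression levels, given array by array as replicates 1, 2 and 3 of a group. Differences are between means of 3 arrays on that scale and carry ± their standard error (SE). Array medians over all genes lay between 3.68 and 3.94, and pairs of arrays of a group correlated at 0.994 to 0.996 in MPI-2 and at 0.975 to 0.989 in BMM, where BMM mock 1 and BMM LPS 3 were least like their group. The interquartile range over genes was 3.10 to 3.22 in MPI-2 LPS, 3.27 to 3.47 in MPI-2 mock, 2.34 to 2.74 in BMM LPS and 2.80 to 2.93 in BMM mock. It moves with the comparisons of cell type and with those of LPS below, and its part in them was not tested. All 8 macrophage markers lay above background in all 4 groups, whereas 0 of 2 B cell and 0 of 3 mast cell markers did in any. Of 2 erythroid markers measured, 1 lay above background in MPI-2 mock and in BMM LPS, and 0 in the other groups. Of 2 liver markers, 1 did in BMM LPS and 0 in the other groups. Of 4 markers each, 1 to 2 T cell, 1 to 2 neutrophil, 1 to 2 dendritic and 3 fibroblast markers lay above it, depending on the group. Endothelial markers reached it for 0 of 3 in both MPI-2 groups, 2 in BMM LPS and 1 in BMM mock, with summed levels of 7.96 to 8.31 in MPI-2 mock against 9.52 to 10.1 in BMM mock. After LPS these sums lay at 8.20 to 8.46 on MPI-2 arrays and at 10.0 to 10.3 on BMM arrays. The part of these markers in the results was not tested. In these bulk samples fewer cells of a type and less RNA per cell cannot be told apart.

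The level of silent genes was taken from 1027 olfactory receptor (Olfr) genes, of whose means the 95th percentile, 3.36, served as background. Of the 59 members 53 (89.8%) had a mean over the 12 arrays above it, against 12030 of 19938 genes (60.3%). They were 20 of 20 Snora, 25 of 31 Snord, 3 of 3 Scarna and 5 of 5 Snhg genes. At the 90th and 99th percentile of the Olfr genes (3.06 and 4.14), 56 and 43 members lay above. Just above the background was Snord85 (3.59) and just below it Snord35a (3.23). The other members below it were Snord73a, Snord47, Snord118, Snord61 and Snord38a. The highest means belonged to Snord16a (8.97), Snord14e (8.29), Snora23 (8.03) and Snord104 (7.78), which are probe set values and do not rank amounts of RNA.

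By group, 57 members lay above background in MPI-2 LPS and 57 in MPI-2 mock, against 45 in BMM LPS and 48 in BMM mock. Over all genes the counts ran the other way, with 11403 and 11166 in MPI-2 LPS and mock and 12744 and 12271 in BMM LPS and mock. One background served all groups, and of the 1027 Olfr genes 44 and 26 exceeded it in MPI-2 LPS and mock. In BMM LPS and mock 82 and 69 Olfr genes did, and the part of this in the counts over all genes was not tested. Snord87, Snord58b, Snord52, Snord35a, Snord73a and Snord47 had group means above background in both MPI-2 groups and in neither BMM group. Snord118 reached it in MPI-2 LPS alone, Snord61 in MPI-2 mock alone and Snord38a in no group. No member lay above background in both BMM groups and below it in both MPI-2 groups.

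**Figure D1:**
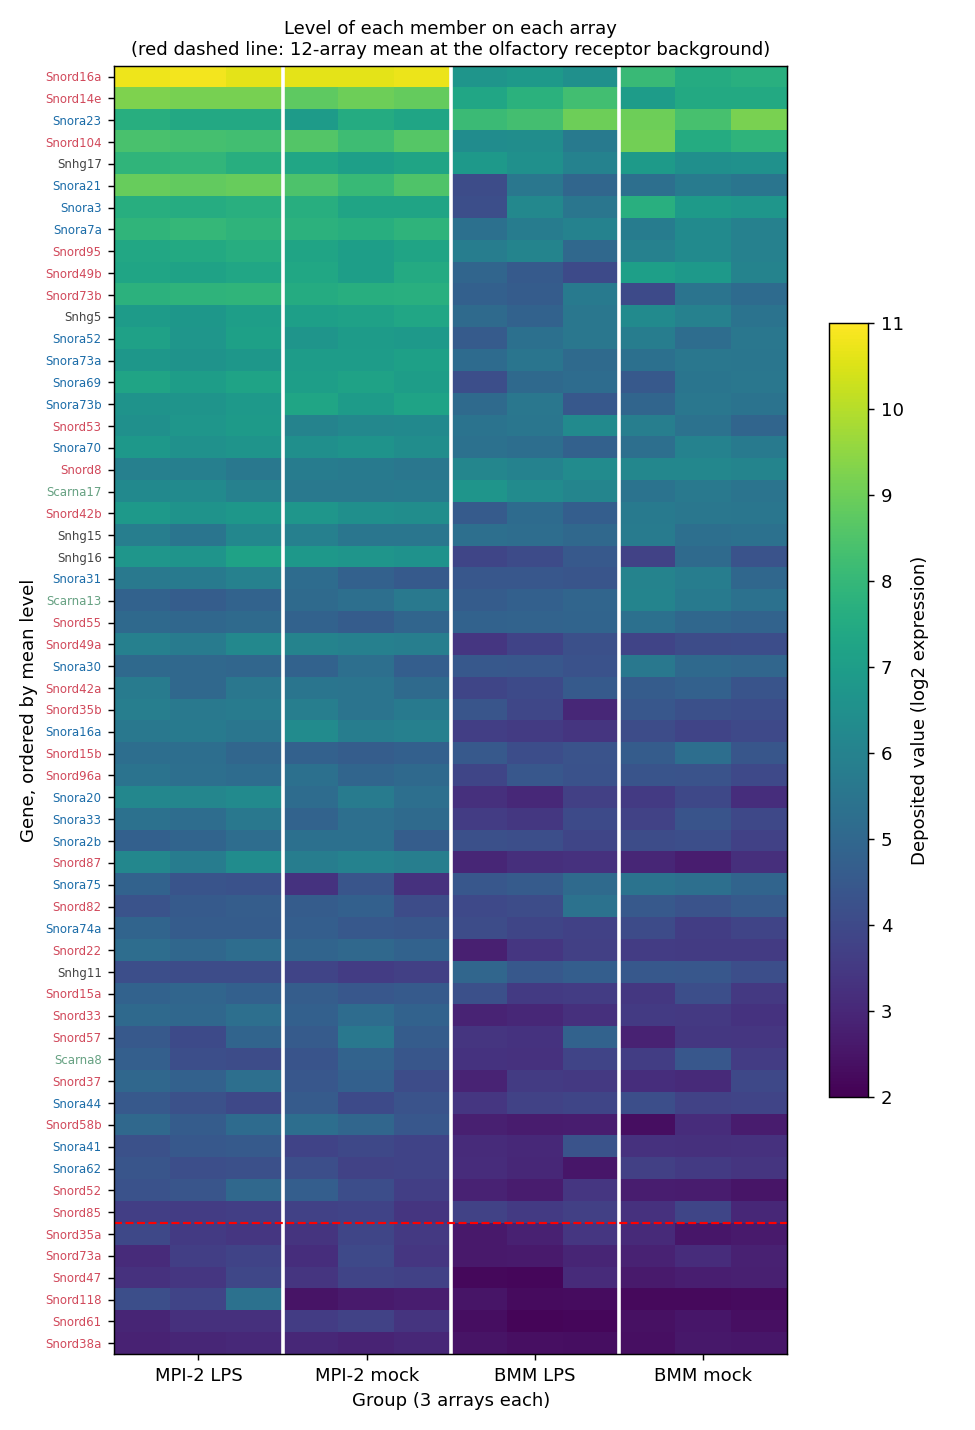
Deposited log2 expression (colour) of the 59 members (rows, ordered by mean over the 12 arrays) on each of the 12 arrays (columns, grouped as MPI-2 LPS, MPI-2 mock, BMM LPS and BMM mock); name colours give the class (red Snord, blue Snora, green Scarna, black Snhg), and the red dashed line separates the 53 members above the background of 3.36 from the 6 below it. Most rows are brighter on the 6 MPI-2 arrays, whereas Snora23 is brighter in BMM, as is Snora75 in BMM mock against MPI-2 mock.

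Most of these genes gave higher values in MPI-2 than in BMM. In mock-treated cells 39 of 59 members were higher in MPI-2 and 5 lower at a limma adjusted p under 0.05, against 20.6% and 18.0% of all genes. The median difference (MPI-2 minus BMM, log2) of the members was 0.84, against −0.10 over all genes and 0.03 over the genes above background, of which 33.2% were called higher. By class, 23 of 31 Snord, 12 of 20 Snora, 1 of 3 Scarna and 3 of 5 Snhg genes were higher. After LPS 49 of 59 were higher and 3 lower, against 22.5% and 21.6% of all genes, with a median difference of 1.38 against −0.14 over all genes. These were 26 of 31 Snord, 18 of 20 Snora, 1 of 3 Scarna and 4 of 5 Snhg genes. Of the members called, the arrays of the cell types did not overlap for 38 of 39 higher and 4 of 5 lower in mock, and for 47 of 49 higher and 3 of 3 lower after LPS. Over all genes called, 98.1% of the higher and 96.3% of the lower did not overlap in mock, and 98.4% and 94.1% after LPS. On each array taken alone, the median over the 59 members lay at 5.13 to 5.59 on MPI-2 arrays and at 4.15 to 4.79 on BMM arrays, without overlap.

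**Figure D2:**
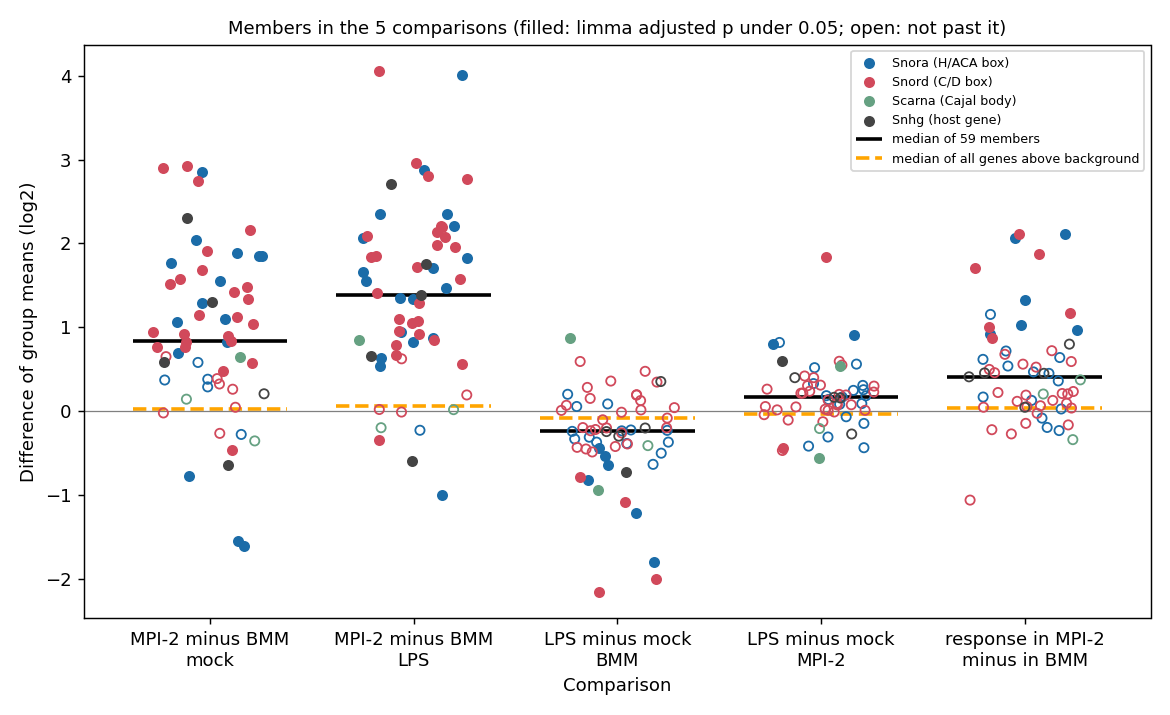
Difference of group means (log2) of each of the 59 members in the 5 comparisons, coloured by class, with filled points past a limma adjusted p of 0.05. The black bars, the member medians, stand at 0.84 and 1.38 for MPI-2 minus BMM in mock and LPS, at −0.24 and 0.17 for LPS minus mock in BMM and MPI-2, and at 0.41 for the response in MPI-2 minus that in BMM; orange dashes give the median of all genes above background.

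Among box C/D members, Snord16a, which lies within the gene of the large-subunit ribosomal protein Rpl4, had the widest gap after LPS. Its values were 10.64, 10.63 and 10.73 in MPI-2 mock, against 8.09, 7.55 and 7.69 in BMM mock. After LPS they were 10.76, 10.85 and 10.62 in MPI-2, against 6.68, 6.86 and 6.52 in BMM. All 6 MPI-2 arrays lay far above all 6 BMM arrays, by 2.89 ± 0.15 in mock (7.43-fold, adjusted p = 3.35e-10) and 4.06 ± 0.15 in LPS (16.7-fold, adjusted p = 4.99e-12). Snord87, within the non-coding gene Snhg6, stood at 5.82, 5.99 and 5.86 in MPI-2 mock, against 2.98, 2.73 and 3.20 in BMM mock. The BMM values are at the level of silent genes, whereas the MPI-2 arrays are clear of it. Where every array of the dimmer group lies below background, the fold is a lower bound, taken against the background of 3.36. The bound rests on the mean of the brighter group and carries no sampling error. The fitted log2 difference is then a measured value only. Snord87 was at least 5.76-fold higher in MPI-2 mock (measured 2.92 ± 0.16, adjusted p = 9.25e-10). After LPS it was at least 6.74-fold higher (measured 2.96 ± 0.16, adjusted p = 5.98e-10), with values of 6.18, 5.79 and 6.38 in MPI-2 LPS against 2.97, 3.23 and 3.28 in BMM LPS.

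Snord73b, within the ribosomal protein gene Rps3a1, had 7.54, 7.63 and 7.66 in MPI-2 mock, against 4.02, 5.45 and 5.14 in BMM mock. The groups did not overlap although the BMM arrays scattered, and the difference was 2.74 ± 0.30 in mock (adjusted p = 2.26e-06) and 2.81 ± 0.30 in LPS (adjusted p = 1.45e-06). Its LPS values were 7.77, 7.84 and 7.87 in MPI-2 and 4.76, 4.62 and 5.69 in BMM. Snord73a, the other copy in that host, was called higher in mock (measured 0.58 ± 0.21, adjusted p = 0.0362), with all BMM arrays below background. Its mean in MPI-2 mock was 3.52, near background, so no fold is given. Snord58b, within Rpl17, had 5.25, 4.96 and 4.43 in MPI-2 mock, against 2.34, 3.13 and 2.68 in BMM mock, again silent-gene levels in BMM, and was at least 2.86-fold higher (measured 2.16 ± 0.22, adjusted p = 7.36e-07). Snord14e, a copy of the U14 snoRNA that takes part in cleavage of the rRNA precursor and lies within the chaperone gene Hspa8, stood at 8.76, 9.0 and 8.87 in MPI-2 mock, against 6.97, 7.47 and 7.46 in BMM mock. It was higher in MPI-2 by 1.57 ± 0.20 in mock (adjusted p = 9.48e-06) and 1.41 ± 0.20 in LPS (adjusted p = 2.57e-05). Snord95, within the ribosome-associated gene Rack1, had 7.26, 7.05 and 7.26 in MPI-2 mock, against 5.95, 6.29 and 5.96 in BMM mock, which do not overlap and differ by 1.12 ± 0.21 (adjusted p = 0.000388).

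Further box C/D members were higher in MPI-2 as well. Snord49a had 6.02, 5.93 and 5.84 in MPI-2 mock, against 3.84, 4.08 and 4.14 in BMM mock, and 5.91, 5.76 and 6.19 in MPI-2 LPS, against 3.44, 3.81 and 4.21 in BMM LPS. Its 6 MPI-2 arrays lay above all 6 BMM arrays whatever the treatment, by 1.91 ± 0.17 in mock (adjusted p = 2.88e-07) and 2.13 ± 0.17 in LPS (adjusted p = 6.49e-08). Snord33, within Rpl13a, had 4.76, 5.2 and 4.83 in MPI-2 mock, against 3.54, 3.49 and 3.30 in BMM mock. It was higher without overlap, by 1.49 ± 0.14 in mock (adjusted p = 5.98e-07) and at least 3.39-fold in LPS, where BMM lay below background (measured 2.08 ± 0.14, adjusted p = 1.01e-08). Snord22, a box C/D RNA that takes part in maturation of the small-subunit rRNA and lies within Snhg1, had 4.88, 5.03 and 4.82 in MPI-2 mock, against 3.60, 3.55 and 3.56 in BMM mock. It was higher by 1.34 ± 0.18 in mock (adjusted p = 1.74e-05) and 1.84 ± 0.18 in LPS (adjusted p = 4.49e-07).

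Snord8 was the box C/D member that went the other way. Its values were 5.79, 5.66 and 5.58 in MPI-2 mock, against 6.16, 6.18 and 6.07 in BMM mock, a small gap without overlap of −0.46 ± 0.13 (1.37-fold lower, adjusted p = 0.0111). After LPS it stood at 5.92, 5.89 and 5.62 in MPI-2, against 6.12, 5.98 and 6.35 in BMM, −0.34 ± 0.13 (adjusted p = 0.0451). That call was lost with trend and robust settings (adjusted p = 0.0868), the replicate block (0.0585), genes above background only (0.0534), the 6 arrays alone (0.0881) and BMM mock 1 and BMM LPS 3 both left out (0.145), and without any 1 array other than BMM LPS 2 and BMM mock 1 (adjusted p from 0.0502 to 0.194). Snord82, Snord85 and Snord55 passed the threshold in neither comparison, with mock differences of 0.05, 0.26 and −0.27. The other Snord members called higher in mock ran from Snord38a (0.47, below background) and Snord73a up to Snord49a (1.91) and Snord57 (1.68), of which Snord57 did not pass after LPS (0.62).

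Among box H/ACA members the widest gap was that of Snora21, which lies within the ribosomal protein gene Rpl23. It had 8.5, 8.07 and 8.51 in MPI-2 mock, against 5.30, 5.73 and 5.49 in BMM mock, and after LPS 8.91, 8.83 and 8.89 in MPI-2, against 4.10, 5.56 and 4.97 in BMM. The MPI-2 arrays agreed closely and lay above every BMM array, by 2.85 ± 0.26 in mock (7.22-fold, adjusted p = 2.85e-07) and 4.01 ± 0.26 in LPS (16.1-fold, adjusted p = 4.46e-09). A second Snora21 probe set that was not used averaged 7.84 in MPI-2 LPS, 7.60 in MPI-2 mock, 4.66 in BMM LPS and 5.24 in BMM mock, in the same order. Snora16a, within Snhg12, had 6.35, 5.83 and 5.90 in MPI-2 mock, against 4.09, 3.86 and 4.0 in BMM mock. That is higher on every MPI-2 array, by 2.04 ± 0.14 (4.12-fold, adjusted p = 1.45e-08). Snora7a, within Rpl32, had 7.80, 7.65 and 7.85 in MPI-2 mock, against 5.78, 6.30 and 5.95 in BMM mock, without overlap and 1.76 ± 0.17 higher (adjusted p = 5.07e-07). Snora73a and Snora73b, copies of the U17 snoRNA that is needed to cleave the rRNA precursor and both within Snhg3, were higher by 1.55 ± 0.13 and 1.85 ± 0.23 in mock (adjusted p = 9.26e-08 and 6.96e-06). Such near-identical copies can share labelled RNA, so values of Snora73a and Snora73b, and of the a and b copies of Snord15, Snord42, Snord49 and Snord73, may not be separate measurements.

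Snora23 and Snora75 were lower in MPI-2. Snora23, within the nuclear import receptor gene Ipo7, had 6.93, 7.54 and 7.27 in MPI-2 mock, against 9.01, 8.38 and 9.21 in BMM mock. It lay lower on all 3 MPI-2 arrays, at a difference of −1.61 ± 0.24 (3.06-fold lower, adjusted p = 4.79e-05), and after LPS at one of −1.0 ± 0.24 (adjusted p = 0.00302) with 7.64, 7.42 and 7.43 in MPI-2 and 8.14, 8.31 and 9.03 in BMM. Snora75, within the nucleolin gene Ncl, had 3.33, 4.37 and 3.27 in MPI-2 mock, against 5.42, 5.29 and 4.91 in BMM mock. MPI-2 mock 2 stood apart from its group but still below every BMM array, and the difference was −1.55 ± 0.27 (2.93-fold lower, adjusted p = 0.000207). After LPS Snora75 did not pass (−0.23 ± 0.27, adjusted p = 0.489). Snora69, within Rpl39, had 7.04, 7.17 and 7.0 in MPI-2 mock, against 4.52, 5.5 and 5.56 in BMM mock, a difference of 1.88 ± 0.27 in mock (adjusted p = 3.53e-05) and 2.35 ± 0.27 in LPS (adjusted p = 2.78e-06). The other Snora members called higher in mock ran from Snora74a (0.69) to Snora20 (1.85). Snora31 was called lower in mock (−0.78 ± 0.22, adjusted p = 0.00995), although its arrays overlap.

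After LPS the list of the widest gaps also held Snora20 and Snord49b. Snora20, within the chaperonin gene Tcp1, had 6.17, 6.13 and 6.31 in MPI-2 LPS, against 3.25, 3.04 and 3.69 in BMM LPS. The BMM values straddle the background and the MPI-2 arrays lie clear above them, by 2.88 ± 0.20 (7.34-fold, adjusted p = 1.19e-08). Snord49b had 7.29, 7.19 and 7.32 in MPI-2 LPS, against 4.94, 4.53 and 4.03 in BMM LPS, higher on every MPI-2 array by 2.77 ± 0.25 (6.8-fold, adjusted p = 1.9e-07). In mock cells Snord49b overlapped between the cell types and did not pass (0.65 ± 0.25, adjusted p = 0.051). Of the scaRNAs, Scarna8 was higher in MPI-2 in mock (0.64 ± 0.24, adjusted p = 0.0441) and in LPS (0.85 ± 0.24, adjusted p = 0.00935). Scarna13 and Scarna17 passed in neither, with differences of −0.36 and 0.14 in mock and 0.02 and −0.20 in LPS.

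The 5 Snhg members, long non-coding RNAs that host snoRNAs in their introns, are read by probe sets of the host itself. Snhg16 had 6.81, 6.68 and 6.59 in MPI-2 mock, against 3.78, 5.11 and 4.30 in BMM mock, and 6.74, 6.67 and 7.18 in MPI-2 LPS, against 3.89, 4.05 and 4.51 in BMM LPS. All MPI-2 arrays exceeded all BMM arrays, by 2.30 ± 0.26 in mock (4.93-fold, adjusted p = 2.98e-06) and 2.71 ± 0.26 in LPS (6.54-fold, adjusted p = 3.91e-07). Snhg5 had 7.06, 7.16 and 7.34 in MPI-2 mock, against 6.29, 5.94 and 5.44 in BMM mock. It was higher without overlap by 1.30 ± 0.20 in mock (adjusted p = 9.49e-05) and 1.75 ± 0.20 in LPS (adjusted p = 3.64e-06), where values were 6.95, 6.76 and 7.03 in MPI-2 and 5.10, 4.84 and 5.56 in BMM. Snhg17 had 7.33, 7.09 and 7.24 in MPI-2 mock, against 6.91, 6.47 and 6.54 in BMM mock, and 7.88, 7.94 and 7.64 in MPI-2 LPS, against 6.82, 6.52 and 5.98 in BMM LPS. The groups were close in mock and well apart after LPS, with differences of 0.58 ± 0.19 (adjusted p = 0.0219) and 1.38 ± 0.19 (adjusted p = 1.73e-05). In mock the Snhg17 call was lost under cyclic loess (0.18, adjusted p = 0.567) and quantile normalization (0.24, adjusted p = 0.412), and without any 1 of MPI-2 mock 1 and 3 and BMM mock 2 and 3 (adjusted p up to 0.0801).

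Snhg15 passed after LPS alone (0.66 ± 0.18, adjusted p = 0.00669), with 5.85, 5.49 and 6.16 in MPI-2 LPS and 5.27, 5.2 and 5.03 in BMM LPS. In mock it had 5.93, 5.54 and 5.55 in MPI-2 and 5.74, 5.29 and 5.37 in BMM, which overlap. The Snhg15 call after LPS was lost under cyclic loess (0.29, adjusted p = 0.236) and quantile normalization (0.24, adjusted p = 0.314). Snhg11 was lower in MPI-2, with 3.86, 3.60 and 3.71 in MPI-2 mock, against 4.49, 4.43 and 4.17 in BMM mock. The gap was small but without overlap, −0.64 ± 0.14 in mock (adjusted p = 0.00196) and −0.59 ± 0.14 in LPS (adjusted p = 0.00317), where values were 4.17, 4.09 and 4.11 in MPI-2 and 4.98, 4.47 and 4.70 in BMM.

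In BMM, a few of these genes gave clearly lower values with LPS, Snord49b, Snord104, Snora3, Snora31 and Snord16a among them, and Scarna17 rose. Of 59 members 12 (20.3%) fell and 1 (1.69%) rose, against 15.4% and 10.3% of all genes. The member median was −0.24 (LPS minus mock), against 0.04 over all genes and −0.08 over the genes above background, of which 24.5% were called lower. By class 6 of 20 Snora, 4 of 31 Snord, 1 of 3 Scarna and 1 of 5 Snhg genes fell. With BMM mock 1 and BMM LPS 3, the arrays least like their group, both left out, 19 members fell. The member median was −0.13 under cyclic loess and −0.18 under quantile normalization.

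The largest falls among the members were those of Snord49b and Snord104, box C/D RNAs within non-coding genes. Snord49b had 4.94, 4.53 and 4.03 in BMM LPS, against 7.09, 6.86 and 6.03 in BMM mock. All LPS arrays lay well below all mock arrays, and the change was −2.16 ± 0.25 (4.46-fold lower, adjusted p = 7.08e-06). Snord49a, which the gene 2410006H16Rik also holds, had 3.44, 3.81 and 4.21 in BMM LPS, against 3.84, 4.08 and 4.14 in BMM mock. Those groups overlap, and the change of −0.20 ± 0.17 did not pass (adjusted p = 0.458). Snord104, within Gm36220, had 6.38, 6.42 and 5.66 in BMM LPS, against 9.08, 7.53 and 7.84 in BMM mock. BMM mock 1 is higher than its group, yet the lowest mock array exceeds every LPS array, and the change was −2.0 ± 0.30 (4.0-fold lower, adjusted p = 0.000109). Snord16a had 6.68, 6.86 and 6.52 in BMM LPS, against 8.09, 7.55 and 7.69 in BMM mock, lower on every LPS array, a change of −1.09 ± 0.15 (2.13-fold lower, adjusted p = 3.28e-05). Snord42b, within Rpl23a, was the other box C/D member that fell (−0.79 ± 0.15, adjusted p = 0.000922).

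Of the box H/ACA class, Snora3, within Rpl27a, had 4.15, 6.20 and 5.54 in BMM LPS, against 7.67, 6.89 and 6.74 in BMM mock. The LPS arrays scatter widely, with BMM LPS 1 lowest, but stay below the mock arrays, and the change was −1.80 ± 0.37 (3.49-fold lower, adjusted p = 0.00153). A second Snora3 probe set that was not used averaged 4.90 ± 0.29 in BMM LPS and 6.28 ± 0.22 in BMM mock (SD, n = 3 each). Snora31, within the translationally controlled tumour protein gene Tpt1, had 4.44, 4.45 and 4.36 in BMM LPS, against 6.03, 5.82 and 5.02 in BMM mock, lower without overlap, a change of −1.21 ± 0.22 (2.31-fold lower, adjusted p = 0.000529). Snora30 (−0.83), Snora62 (−0.64), Snora70 (−0.53) and Snora16a (−0.44) also fell, at adjusted p = 0.00168, 0.0073, 0.04 and 0.0331, with overlapping arrays for Snora70 and BMM LPS below background for Snora62. The other 27 Snord and 14 Snora members lay between −0.63 (Snora21) and 0.59 (Snord57), none past the threshold.

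The scaRNAs moved in both directions. Scarna17 had 6.68, 6.35 and 6.11 in BMM LPS, against 5.42, 5.62 and 5.48 in BMM mock, and rose by 0.87 ± 0.15 (1.83-fold, adjusted p = 0.000304) without overlap. Scarna13, within Snhg10, had 4.60, 4.76 and 4.94 in BMM LPS, against 6.07, 5.69 and 5.35 in BMM mock. It fell without overlap, a change of −0.93 ± 0.18 (1.91-fold lower, adjusted p = 0.000837). Snhg5 was the host RNA called lower (−0.72 ± 0.20, adjusted p = 0.0156), with 5.10, 4.84 and 5.56 in BMM LPS and 6.29, 5.94 and 5.44 in BMM mock. Its arrays overlap, and the call was lost under cyclic loess (−0.50, adjusted p = 0.16), quantile normalization (−0.50, adjusted p = 0.186), with the 6 BMM arrays alone (−0.72, adjusted p = 0.0767), and without BMM LPS 2 (−0.56) or BMM mock 1 (−0.52). Snhg16, Snhg17, Snhg15 and Snhg11 stood at −0.24, −0.20, −0.30 and 0.35, none past the threshold, although Snhg11 passed under cyclic loess (0.46, adjusted p = 0.0167), quantile normalization (0.66, adjusted p = 0.0056) and without BMM LPS 2 (0.48, adjusted p = 0.0228). Snhg16 passed with BMM mock 1 and BMM LPS 3 both left out (−0.73, adjusted p = 0.0187).

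**Figure D3:**
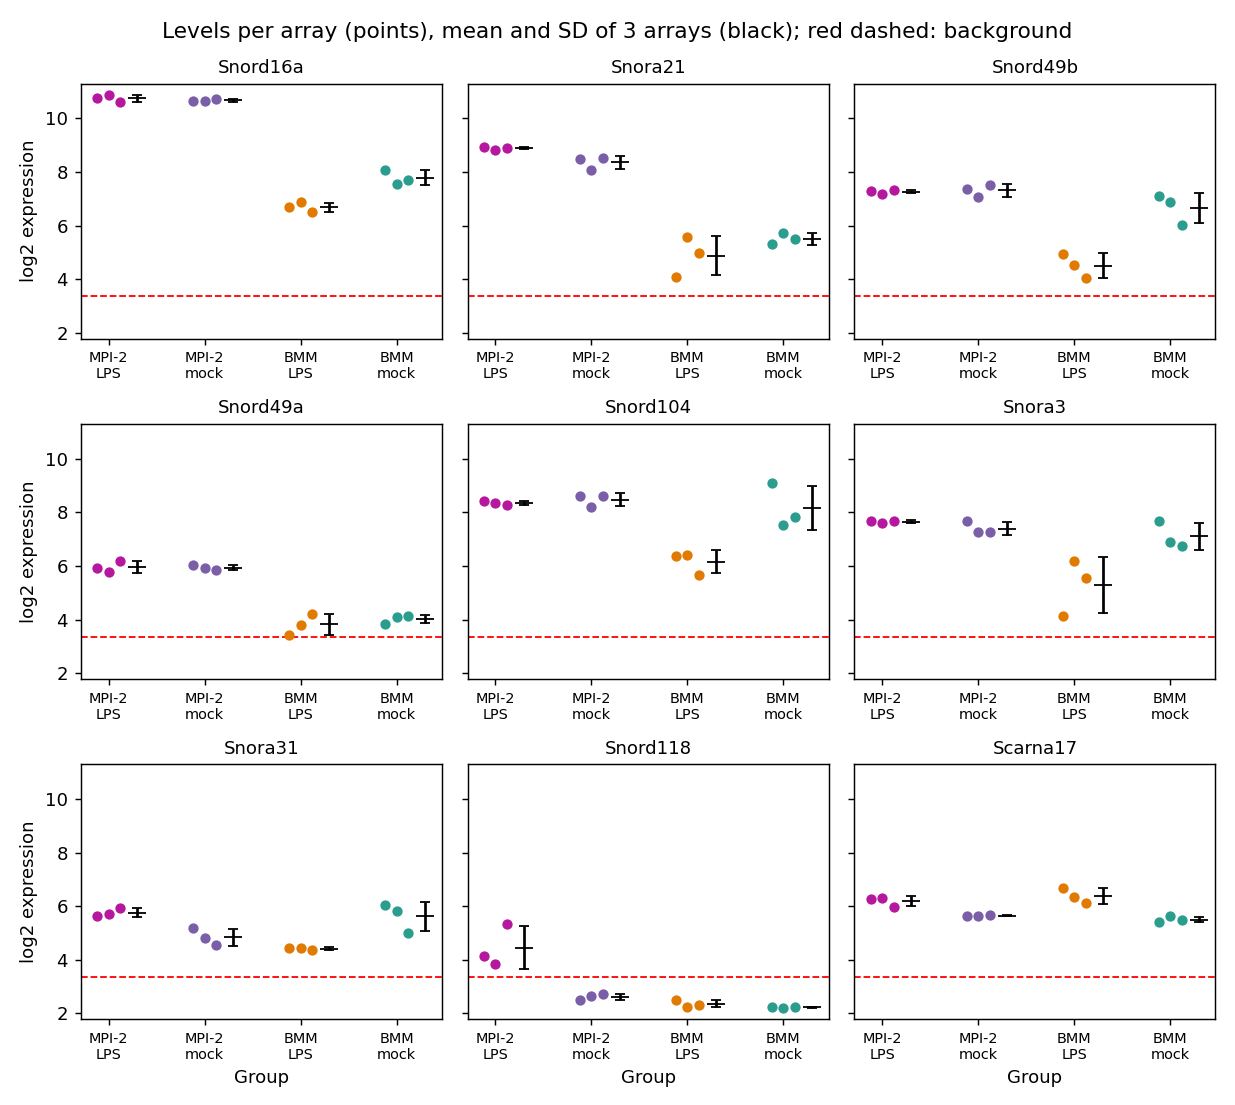
Deposited log2 expression of 9 members on each array (points) with the mean and SD of 3 arrays (black) in MPI-2 LPS, MPI-2 mock, BMM LPS and BMM mock, and the background of 3.36 (red dashed). Snord49b, Snord104 and Snora3 are low in BMM LPS alone, Snord49a is low in both BMM groups, and Snord118 is above background in MPI-2 LPS alone.

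In MPI-2, few members changed with LPS. Of 59 members 5 (8.47%) rose and 2 (3.39%) fell, against 5.17% and 9.58% of all genes and 8.02% and 15.5% of the genes above background. The member median was 0.17, against 0.02 over all genes and −0.03 over the genes above background. Single arrays moved the counts. Without MPI-2 LPS 1, 2 or 3 the rising members numbered 3, 3 and 2, and without MPI-2 mock 1 or 3 they numbered 2 and 1. The falling members numbered 0 without any 1 of MPI-2 LPS 1, 2 and 3 and MPI-2 mock 2, and 1 without MPI-2 mock 1 or 3, BMM LPS 2 or BMM mock 2. The 6 MPI-2 arrays fitted alone gave 14 rising and 5 falling members.

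Snord118, the U8 RNA, is needed to mature the RNAs of the large ribosomal subunit and is made from a gene of its own in mammals. It had 4.15, 3.86 and 5.35 in MPI-2 LPS, against 2.49, 2.64 and 2.74 in MPI-2 mock. The mock arrays lie at the level of silent genes and all LPS arrays above it, MPI-2 LPS 3 highest, and the rise was at least 2.13-fold (measured 1.83 ± 0.26, adjusted p = 0.000149). In BMM, Snord118 had 2.51, 2.26 and 2.31 in LPS and 2.24, 2.21 and 2.25 in mock, all below background. Snora31 had 5.62, 5.70 and 5.94 in MPI-2 LPS, against 5.19, 4.80 and 4.56 in MPI-2 mock, and rose without overlap by 0.91 ± 0.22 (1.87-fold, adjusted p = 0.00871). Snora20 had 6.17, 6.13 and 6.31 in MPI-2 LPS, against 5.18, 5.73 and 5.29 in MPI-2 mock, and rose without overlap by 0.80 ± 0.20 (1.74-fold, adjusted p = 0.0129). Scarna17 had 6.26, 6.32 and 5.97 in MPI-2 LPS, against 5.62, 5.65 and 5.67 in MPI-2 mock, and rose without overlap, as in BMM, by 0.53 ± 0.15 (adjusted p = 0.0213). Calls were lost without MPI-2 LPS 3 or MPI-2 mock 3 for Snora31 (adjusted p up to 0.0549), without either of these or MPI-2 mock 1 for Snora20 (up to 0.0769), and without MPI-2 LPS 1 or 2 or any MPI-2 mock array for Scarna17 (up to 0.109).

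Snhg17 was the host RNA that rose, to 7.88, 7.94 and 7.64 in MPI-2 LPS, against 7.33, 7.09 and 7.24 in MPI-2 mock. The groups did not overlap, and the change was 0.60 ± 0.19 (adjusted p = 0.0424). Leaving out any 1 MPI-2 array, BMM LPS 2 or BMM mock 3 removed that call (adjusted p up to 0.164), as did the mean of all its probe sets (0.39, adjusted p = 0.0594). Snhg11 was not called (0.40 ± 0.14, adjusted p = 0.079), but passed under cyclic loess (0.47, adjusted p = 0.0234), with the 6 MPI-2 arrays alone (adjusted p = 0.00906), without BMM LPS 1 or 2 (adjusted p = 0.0474 to 0.0495) and with BMM mock 1 and BMM LPS 3 both left out (adjusted p = 0.0482). Scarna13 had 4.84, 4.66 and 4.86 in MPI-2 LPS, against 5.11, 5.29 and 5.63 in MPI-2 mock. It fell without overlap, a change of −0.56 ± 0.18 (adjusted p = 0.044). The call was lost under cyclic loess (−0.41, adjusted p = 0.192) and quantile normalization (−0.32, adjusted p = 0.456), with the replicate block (adjusted p = 0.0584) and trend and robust settings (adjusted p = 0.0553), and without any 1 of MPI-2 LPS 1, 2 and 3, MPI-2 mock 2 and 3, BMM LPS 2 and BMM mock 2 (adjusted p up to 0.207). Snord61, within the X-linked RNA-binding protein gene Rbmx, had 2.94, 3.24 and 3.24 in MPI-2 LPS, against 3.61, 3.76 and 3.36 in MPI-2 mock, close to background throughout. It fell, a change of −0.44 ± 0.13 (adjusted p = 0.0379) that was not called without any 1 of MPI-2 LPS 1, 2 and 3 and MPI-2 mock 1 and 2 (adjusted p up to 0.193).

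The difference of the responses (MPI-2 minus BMM) was tested directly. It was positive for 12 of 59 members (20.3%) and negative for 0 at limma's adjusted p under 0.05, against 7.08% and 6.27% of all genes. Of the genes above background 11.1% were positive and 9.84% negative. At an unadjusted p under 0.05 it was positive for 19 members and negative for 0, against 12% and 10.8% of all genes. The member median was 0.41, against −0.02 over all genes and 0.04 over the genes above background. The 12 were 6 Snora and 6 Snord genes, and 0 of 3 Scarna and 0 of 5 Snhg genes passed. Snhg17 (0.80 ± 0.26, adjusted p = 0.0605) passed with the replicate block (adjusted p = 0.0273), genes above background only (0.0442), the mean of its probe sets (0.64, adjusted p = 0.0304) and without BMM LPS 1 (0.99, adjusted p = 0.0159). Snhg16 (0.90, adjusted p = 0.0347) passed with BMM mock 1 and BMM LPS 3 both left out. Snora31 fell in BMM and rose in MPI-2, a difference of 2.12 ± 0.31 (adjusted p = 0.000188). Snord49b, Snora3, Snord104 and Snord16a fell in BMM and had changes of −0.04, 0.26, −0.13 and 0.08 in MPI-2, none past the threshold, and their differences were 2.12 ± 0.35, 2.06 ± 0.52, 1.87 ± 0.43 and 1.16 ± 0.21 (adjusted p = 0.000652, 0.0143, 0.00747 and 0.0011). In MPI-2, Snord104 had 8.42, 8.34 and 8.28 in LPS, against 8.59, 8.21 and 8.62 in mock, and Snora3 had 7.66, 7.58 and 7.69 in LPS, against 7.66, 7.26 and 7.25 in mock. Both overlap between treatments there, unlike in BMM. Snord118 rose in MPI-2 and stayed below background in BMM, with a measured difference of 1.71 ± 0.37 (adjusted p = 0.00535) that rests on 3 groups below background. Snora75 passed in neither cell type, at 0.82 ± 0.27 in MPI-2 and −0.50 ± 0.27 in BMM, but their difference did (1.32 ± 0.37, adjusted p = 0.0283), except under quantile normalization (1.10, adjusted p = 0.0958) or without any 1 of MPI-2 LPS 1, MPI-2 mock 1 and 3, BMM LPS 1 and 2 and BMM mock 2 (adjusted p up to 0.0882). For Snora75, MPI-2 mock 1 and 3 lay below background. Snora20 (1.03 ± 0.29, adjusted p = 0.0262), Snord42b (1.0 ± 0.21, adjusted p = 0.00466), Snora62 (0.97 ± 0.23, adjusted p = 0.00909), Snora30 (0.92 ± 0.24, adjusted p = 0.0183) and Snord15b (0.87 ± 0.26, adjusted p = 0.0351) completed the list. For Snora62, BMM LPS averaged 2.89, below background, and BMM mock 3.54, near it.

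The RefSeq gene spans place 53 of the 54 small RNA members inside another gene, and Snord118 inside none. The host was a ribosomal protein gene for 21 members, another protein-coding gene for 17 and a long non-coding gene for 15. Of the members in ribosomal protein genes, 17 of 21 were higher in MPI-2 mock than in BMM mock and 20 of 21 after LPS. The counts were 10 and 12 of 17 in other protein-coding genes and 9 and 12 of 15 in non-coding genes, and these shares were not tested against each other. Over all genes the share higher in MPI-2 was 20.6% in mock and 22.5% after LPS, and over the genes above background 33.2% and 36.5%. With LPS in BMM, 5 of 21, 2 of 17 and 4 of 15 of these members fell, against 15.4% of all genes and 24.5% of the genes above background.

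For 28 members the host was itself measured, by 24 host genes, and both changes stand side by side. In mock, 13 pairs were called higher in MPI-2 for small RNA and host alike, 9 for the small RNA alone in either direction and 4 for the host alone. With LPS in BMM, 1 pair was called lower for both, 6 for the small RNA alone and 6 for the host alone in either direction. There the change of the small RNA lay above that of its host in 14 of 28 pairs. The median difference (small RNA minus host, log2) was 0.06. Across the 28 pairs the 2 changes correlated at r = 0.28 in mock and 0.02 in LPS between cell types, and at 0.18 and 0.32 for LPS in BMM and MPI-2. The pairs share arrays, and some share a host, so these are descriptions. Rpl4 was higher in MPI-2 mock by 1.86 ± 0.17 (adjusted p = 3.64e-07), as was Snord16a, but with LPS in BMM Rpl4 had 0.29 ± 0.17 (adjusted p = 0.252), whereas Snord16a fell. Rpl27a had a change with LPS in BMM of −0.32 ± 0.20 (adjusted p = 0.294), against −1.80 for Snora3. Tpt1 had changes of −0.55 ± 0.23 (adjusted p = 0.1) in BMM and −0.06 ± 0.23 (adjusted p = 0.934) in MPI-2, against −1.21 and 0.91 for Snora31. Ipo7 differed between MPI-2 LPS and BMM LPS by 1.30 ± 0.23 (adjusted p = 0.000251), the opposite direction to Snora23. Rpl23a fell with LPS in BMM by 0.98 on the log2 scale (adjusted p = 0.0159), as did its Snord42b.

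**Figure D4:**
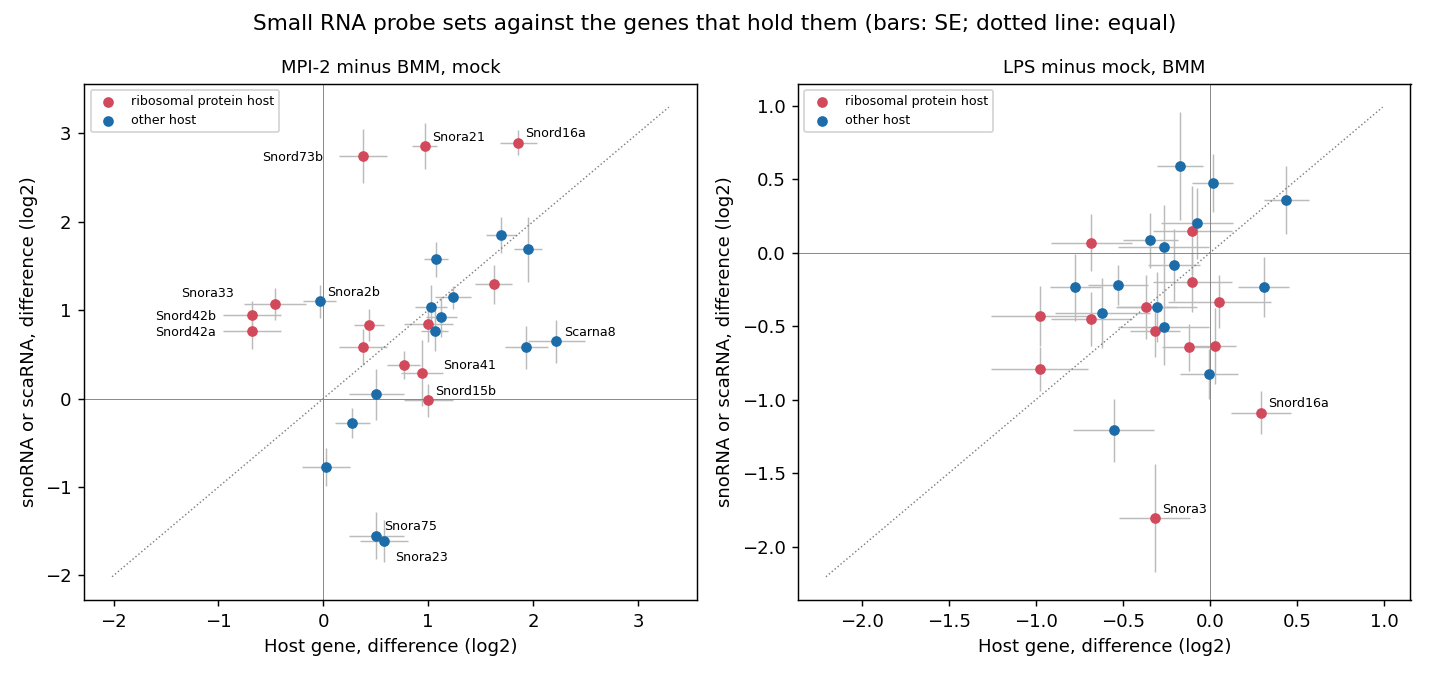
Change of each small RNA member (vertical, log2) against that of the measured gene that holds it (horizontal, log2) for 28 pairs, in mock cells between MPI-2 and BMM (left) and with LPS in BMM (right); bars are SE, the dotted line marks equal changes, red marks ribosomal protein hosts, and pairs over 1 apart are named. Snora23 and Snora75 lie below 0 while their hosts lie above it on the left, and Snord16a and Snora3 lie far below the line on the right.

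Members that a host gene shares could also part. The nucleolin gene holds Snora75 and Snord82, and in mock Snora75 differed by −1.55 while Snord82 differed by 0.05 ± 0.29 (adjusted p = 0.915). Within Rps3a1 Snord73b differed by 2.74 and Snord73a by 0.58. Snord73a averaged 2.94 in BMM mock, below background, and 3.52 in MPI-2 mock, so the sizes of these differences cannot be compared. Within Rps3, Snord15a differed by 0.84 ± 0.19 (adjusted p = 0.00252) and Snord15b by −0.02 ± 0.18 (adjusted p = 0.938). Within Snhg12, Snora16a differed by 2.04 and Snora44 by 0.37 ± 0.18 (adjusted p = 0.122). The difference within a pair was not tested. Snord42a and Snord42b, both in Rpl23a, were higher by 0.77 and 0.95 alike, as were Snord95 and Snord96a in Rack1, by 1.12 and 0.89. Gas5, the growth-arrest RNA that hosts many box C/D snoRNAs, fell with LPS in BMM by 0.77 on the log2 scale (adjusted p = 0.000814), while its Snord47 stood at −0.23, not past the threshold and below background.

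The proteins that build and process these RNAs were read from a list of 34 genes, 33 of them measured. In mock 21 (63.6%) were higher in MPI-2 and 1 (3.03%) lower, with a median of 0.82, and after LPS 22 (66.7%) and 1. The shares over all genes were 20.6% higher and 18.0% lower in mock, and 22.5% and 21.6% after LPS. Over the genes above background, 33.2% were higher in mock and 36.5% after LPS. Of the 8 core proteins 7 were higher in mock and 8 after LPS. The mock difference was 4.05 for Dkc1 (dyskerin, the pseudouridine synthase) and 2.14, 1.74 and 1.14 for its partners Gar1, Nhp2 and Nop10. It was 1.95 and 1.29 for the box C/D scaffold proteins Nop56 and Nop58, 1.66 for Snu13 and 0.36 for Fbl (fibrillarin, the methyltransferase), which did not pass in mock. With LPS, 2 of 33 (6.06%) were higher and 4 (12.1%) lower in BMM, and 3 (9.09%) higher and 1 (3.03%) lower in MPI-2, against 10.3% and 15.4% of all genes in BMM and 5.17% and 9.58% in MPI-2. In BMM these included the cap methyltransferase gene Tgs1 (0.95) and the assembly factor genes Nufip1 (−0.86) and Naf1 (−0.66).

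A list of 36 known coding and other hosts, 30 measured, was higher in MPI-2 mock for 23 genes (76.7%) with a median of 1.04, and after LPS for 26 (86.7%). Of all genes 20.6% were higher and 18.0% lower in mock, and 22.5% and 21.6% after LPS. Among the genes above background 33.2% were higher in mock and 36.5% after LPS. With LPS in BMM 8 of the 30 (26.7%) were called lower and 2 (6.67%) higher, against 15.4% and 10.3% of all genes. For the genes above background these shares were 24.5% and 14.3%. Cytosolic ribosomal protein genes were higher in MPI-2 mock for 36 of 61 and lower for 3, with a median of 0.84, the same to 2 decimals as that of the members, and after LPS for 39 and 3 with a median of 0.87, against 1.38 for the members. MicroRNA genes, another class of short non-coding RNA, showed 15 of 300 higher and 84 lower in MPI-2 mock, with a median of −0.17. Over all genes 20.6% were higher and 18.0% lower in mock, with a median of −0.10. The silent Olfr genes also had a lower median level in MPI-2 mock (2.31) than in BMM mock (2.44). How many microRNA genes lay above background was not counted, and the part of this lower silent-gene level in their median was not tested.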

How the data were processed

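The deposited values are log2 expression levels from RMA in affy, per the submitters' processing notes; their versions were not given in the sources used here. Whether all 12 arrays ran through it together is likewise not given, and base 2 was inferred from the range of values (1.18 to 12.8). Precision is limited by the number of arrays. Of 34760 probe sets, 21640 name 1 gene, 1321 several and 11799 none. Probe sets of 1 gene gave 19938 genes, 953 of them with several probe sets, for which the one with the highest mean was kept. limma 3.58.1 in R 4.3.3 fitted 4 group means over all 12 arrays with empirical Bayes, and 5 comparisons were each adjusted over all genes (Benjamini-Hochberg, threshold 0.05). The fit was tested on simulated data. Host genes were read from RefSeq spans irrespective of strand, because the gene table used has no strand, and not on the same strand as was planned; a host can therefore be on the other strand. Alternatives were cyclic loess or quantile normalization, genes above background only, the mean of all probe sets, a replicate block, trend and robust settings, arrays of the groups compared alone, and leaving out each array. Leaving out BMM mock 1 and BMM LPS 3 together and the search for pyrimidine runs near the start were chosen after seeing the data. Members and lists were chosen with earlier results of these data known. Genes were named where past the threshold without overlap of arrays, up to 6 each way per comparison, with the highest means, all Snhg members, those next to the background, and hosts; other members named were chosen after their values were seen. The MPI-2 mock titles number the arrays 1 to 3, whereas their descriptions differ, and same-numbered arrays did not deviate together (correlations of −0.15 to 0.24).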

Additional observations from a re-analysis of the deposited data

Results flagged for a closer look

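For 12 members the LPS response differed between the cell types by the test of the difference itself (response in MPI-2 minus response in BMM, log2, limma adjusted p under 0.05), and each difference is positive. Snord49b (2.12), Snora3 (2.06), Snord104 (1.87), Snord16a (1.16), Snord42b (1.0), Snora62 (0.97, with BMM LPS below background) and Snora30 (0.92) were called lower with LPS in BMM and were not called in MPI-2. Snora31 (2.12) was called lower in BMM and higher in MPI-2. Snord118 (1.71, with 3 of its 4 groups below background) and Snora20 (1.03) were called higher in MPI-2 and were not called in BMM. Snora75 (1.32, with MPI-2 mock 1 and 3 below background) and Snord15b (0.87) were called in neither cell type. BMM arrays had a narrower interquartile range over genes (2.34 to 2.93) than MPI-2 arrays (3.10 to 3.47). In both cell types the range was narrower on every LPS array than on every mock array. The part of this in the differences was not tested.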

How the results depend on the processing

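No called result changed sign under any alternative run. Among values not called, the sign turned for Snhg16 and Snhg17 with LPS in BMM (to 0.11 without BMM mock 2 and 0.03 without BMM LPS 3, for Snhg16 to 0.03 under cyclic loess, and for Snhg17 to 0.17 with BMM mock 1 and BMM LPS 3 both left out), Snhg15 with LPS in MPI-2 (to −0.01 without MPI-2 LPS 3) and in mock between cell types (to −0.04 under cyclic loess and −0.12 under quantile normalization), and Snhg11 for the difference (to −0.29 under quantile normalization and −0.08 to −0.02 without BMM LPS 2, MPI-2 mock 2 or BMM mock 1, or with both BMM arrays left out). Over the 61 results of named members, 1122 of 1206 values under alternatives stayed on their side of the threshold, 70 lost a call and 14 gained one. Members called higher with LPS in BMM numbered 2 under cyclic loess and 2 under quantile normalization (main 1), and called lower 19 with BMM mock 1 and BMM LPS 3 both left out (main 12). With LPS in MPI-2, 8 were higher under cyclic loess, 14 with the 6 arrays alone and 9 with both BMM arrays left out (main 5). Lower there were 1 under each of cyclic loess, quantile normalization, genes above background only, the replicate block and trend with robust settings, 5 with the 6 arrays alone and 4 with both BMM arrays left out (main 2). The difference of responses was higher for 22 with both BMM arrays left out (main 12), and 8 members were lower in MPI-2 mock under quantile normalization (main 5). Across pairs of member and host the correlation for LPS in MPI-2 was 0.22 over pairs both above background (main 0.32). The cause of these shifts was not tested. Leaving out 1 array gave 1 to 2 higher and 11 to 15 lower for LPS in BMM, 1 to 7 and 0 to 3 for LPS in MPI-2, and 8 to 16 higher and 0 lower for the difference. It gave 35 to 42 higher and 4 to 6 lower in mock, and 46 to 50 and 2 to 3 after LPS, between cell types. Same-numbered arrays share only a number; with the replicate block the counts higher and lower were 1 and 12, 5 and 1, 14 and 0, 41 and 5, and 49 and 2 in the 5 comparisons in that order. Cyclic loess moved the median of all genes in MPI-2 LPS to 3.87, against 3.73 as deposited, and in MPI-2 mock to 3.84, against 3.71, and members still differed between the cell types by a median of 0.80 in mock and 1.14 after LPS. Snord118, Snord61, Snord38a, Snord35a, Snord47 and Snord73a, and Snora62 in BMM, lie near or below background, where small differences cannot be read.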

Other observations

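Probe sets that carry a snoRNA symbol together with another gene were read apart from the members, as values with no test. Of 22 such probe sets 11 had a mean above the background of 3.36. The 7 that name copies of Snord116, the imprinted box C/D cluster of the Prader-Willi region known for expression in neurons, were all below it, at 2.12 to 3.14. Of the other 15, 11 gave a higher mean in MPI-2 mock than in BMM mock with a median difference of 1.32, and 14 a higher mean in MPI-2 LPS than in BMM LPS with a median difference of 0.92.

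Fibroblast markers, 3 of 4 above background in every group, had summed levels of 16.8 to 17.2 in MPI-2 mock and 14.9 to 15.7 in BMM mock, and of 15.7 to 16 in MPI-2 LPS and 15.4 to 16.1 in BMM LPS. Macrophage markers summed to 64.2 to 64.3 in MPI-2 LPS and 62.5 to 63.5 in MPI-2 mock, and to 66.8 to 68.8 in BMM LPS and 73.2 to 74.1 in BMM mock. Their sum was lower in BMM LPS than in BMM mock without overlap, and the gap between cell types was narrower after LPS than in mock. Their part in the members' differences was not tested.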
